A study of Mus musculus with 26 samples.

Results

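The comparison set pre-megakaryocyte-erythroid progenitors (PreMegE, 3 arrays) against granulocyte-macrophage progenitors that were positive for a Gata1 reporter (GMP GFP+, 3 arrays), both sorted from mouse bone marrow. The members are the arrays titled with these 2 names, 6 of the 26 arrays in the series, and 19938 genes were measured on each. Every mouse carried 1 copy of the Gata1-EGFP transgene (genotype Gata1-EGFP Tg/+) and was 8 to 15 weeks old, in all groups alike. Cells of both gates lacked lineage markers, Sca1 and CD41 and carried Kit. PreMegE cells were further negative for the Fc gamma receptors II and III, positive for CD150 and negative for CD105, and their label sets no condition on the reporter. GMP GFP+ cells were positive for these Fc gamma receptors and for the reporter. The labels do not say whether arrays of a group came from separate mice, so a p-value here reflects array-to-array spread that may be of technical origin. The gates selected the sorting antigens as proteins, so their transcripts count as checks and not as findings.

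Gata1 encodes a zinc finger transcription factor that binds DNA letters of the GATA type and is needed for red cells, megakaryocytes, mast cells and eosinophils. PreMegE cells are known as precursors of red cells and megakaryocytes, while reporter-positive cells of the granulocyte-macrophage gate are known to give mast cells, basophils and eosinophils. The comparison therefore asks how the erythroid-megakaryocyte and the mast cell-eosinophil branches differ when both contain Gata1-expressing cells.

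Gata1 had log2 signals of 8.10, 8.67 and 8.63 in PreMegE, against 8.12, 7.92 and 8.21 in GMP GFP+. The groups overlapped, with a difference (PreMegE minus GMP GFP+, as for all differences here) of 0.39 (SE 0.19, adjusted p = 0.546) by limma's moderated test, so a difference in the level of Gata1 was not shown. Both groups lay above the 6.42 ± 0.04 (SD, n = 4) of GMP without reporter signal (GMP GFP-). Slamf1, which encodes the CD150 of the PreMegE gate, was 7.43, 7.79 and 6.29 in PreMegE, against 4.93, 5.15 and 5.45 in GMP GFP+. Fcgr3, which encodes an Fc gamma receptor of the GMP gate, was 6.43, 6.42 and 7.10 in PreMegE, against 10.01, 10.19 and 9.14 in GMP GFP+. Both genes separated the arrays the way the gates were drawn. Kit differed by 0.16 (SE 0.29, adjusted p = 0.961), and Eng, which encodes CD105, by 0.25 (SE 0.21, adjusted p = 0.841). The CD41 gene Itga2b differed by -0.20 (SE 0.17, adjusted p = 0.837), and none of these 3 sort transcripts was called. Itga2b had means of 8.37 in PreMegE and 8.57 in GMP GFP+, above the 7.13 of GMP GFP-. Its transcript thus did not follow the gates, since PreMegE and GMP GFP+ cells were sorted as lacking CD41. Arrays correlated over all genes with r of 0.957 to 0.981 within PreMegE, 0.964 to 0.982 within GMP GFP+ and 0.935 to 0.966 between them. The number of arrays limits the precision. In sorted bulk RNA, fewer cells of a type and less RNA per cell cannot be told apart.

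More genes were lower than higher in PreMegE. Of 19938 genes, 90 (0.451%) were higher and 252 (1.26%) lower in PreMegE by limma at a Benjamini-Hochberg adjusted p under 0.05 over all genes, and such a gene is said here to be called. By at least 1 log2 unit, 47 were higher and 175 lower. The 15 largest falls ran from 3.80 to 6.61 on the log2 scale and were led by Prg2, Rnase12, Mcpt8, Gzmb and Ms4a2. The 15 largest rises ran from 1.72 to 2.65 and were led by Pf4, Mfsd2b, F2r, Ces2g and Slc14a1. Arrays of the groups did not overlap in 1292 genes higher in PreMegE (6.48%) and 1383 lower (6.94%), so a lack of overlap alone was common. The median of all differences was -0.003. Single arrays moved the count of higher genes: it was 51 without GMP GFP+ array 1, 56 without PreMegE array 2 and 58 without PreMegE array 3, and it was 37 with the spread taken from these 6 arrays alone, where 153 genes were lower. In 12 of the 15 largest falls the PreMegE mean, and in 4 of the 15 largest rises the GMP GFP+ mean, lay below 6.61, the median of all values; signals that low were not shown to exceed background, so those differences are of signal and are not turned into folds.

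**Figure D1:**
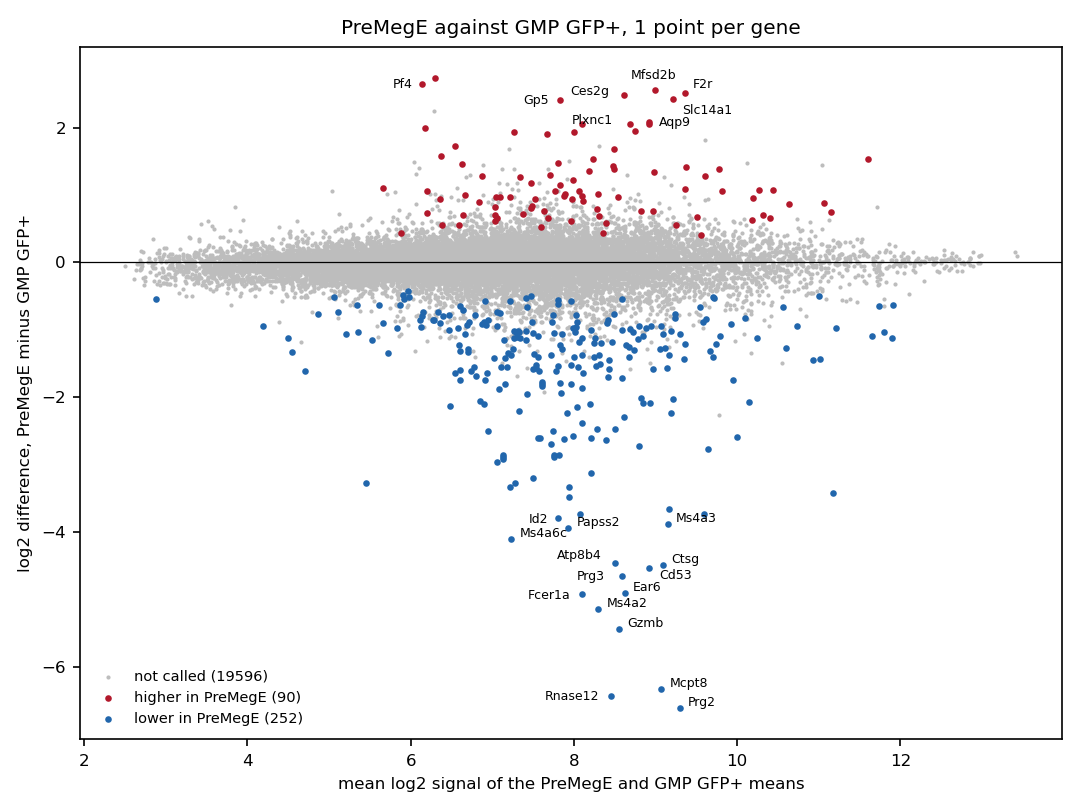
Each point is 1 of 19938 genes, with the log2 difference of PreMegE minus GMP GFP+ (vertical axis) against the mean of the 2 group means (horizontal axis, log2 signal). The 90 genes called higher in PreMegE (red) reach 2.73, in the small nucleolar RNA gene Snord38a, while the 252 called lower (blue) reach -6.61, with Prg2, Rnase12 and Mcpt8 at the bottom.

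Genes of the red cell lineage were higher in PreMegE, but only in part. Of 34 erythroid genes measured (of 40 listed), 6 rose and 0 fell, against 0.451% of all genes called higher, and the median difference was 0.17. Mfsd2b, a transporter of sphingosine-1-phosphate in red cells and platelets, had 9.84, 10.60 and 10.39 in PreMegE, against 7.73, 7.52 and 7.91 in GMP GFP+. Every PreMegE array lay above every GMP GFP+ array, a difference of 2.56 (SE 0.15, adjusted p = 1.17e-10) or 5.9-fold. Ces2g, a carboxylesterase gene, was 9.61, 9.91 and 10.04 in PreMegE, against 7.16, 7.16 and 7.78 in GMP GFP+, and rose by 2.49 (SE 0.24, adjusted p = 3.1e-07). Slc14a1, the urea transporter that carries the Kidd blood group in humans, was not on the list and was 10.04, 10.61 and 10.64 in PreMegE, against 7.51, 8.14 and 8.36 in GMP GFP+. It rose by 2.42 (SE 0.38, adjusted p = 0.000402). The water channel gene Aqp1 rose by 1.68 (SE 0.17, adjusted p = 6.12e-07), the red cell membrane gene Ermap by 1.43 (SE 0.24, adjusted p = 0.000828) and the lipid transporter gene Abcb4 by 1.35 (SE 0.20, adjusted p = 0.000154). Car1, an early carbonic anhydrase of the red cell line, was 12.16, 12.41 and 12.53 in PreMegE, against 10.76, 10.95 and 10.81 in GMP GFP+. It was thus high in both groups and higher in PreMegE by 1.53 (SE 0.33, adjusted p = 0.0106) or 2.88-fold. The call of Car1 was lost without GMP GFP+ array 1 (adjusted p = 0.0532) or PreMegE array 3 (adjusted p = 0.0579).

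Klf1 and Epor, which act in red cell development, and the genes of the heme pathway were not called. Klf1, the factor that switches on late red cell genes, had 7.53, 7.47 and 7.28 in PreMegE, against 6.99, 7.16 and 7.45 in GMP GFP+, and differed by 0.23 (SE 0.16, adjusted p = 0.788). The erythropoietin receptor gene Epor had 7.41, 7.31 and 7.12 in PreMegE, against 7.11, 7.10 and 7.47 in GMP GFP+, with a difference of 0.05 (SE 0.13, adjusted p = 0.974). The arrays of the groups overlapped for both genes. Of 23 heme synthesis and iron genes limma called 0, with 3 at an unadjusted p under 0.05, and their differences ran from -0.67 to 0.45 around a median of 0.04. Alas2, the first enzyme of erythroid heme synthesis, was 7.16, 7.14 and 7.23 in PreMegE, against 7.38, 6.97 and 7.78 in GMP GFP+. The transferrin receptor gene Tfrc, which brings iron into the cell, was 8.26, 8.77 and 8.75 in PreMegE, against 8.90, 8.71 and 8.87 in GMP GFP+. The groups overlapped in both genes.

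Of 24 megakaryocyte and platelet genes 3 rose in PreMegE and 1 fell, against 0.451% and 1.26% of all genes, with a median of 0.16. The thrombin receptor gene F2r was 10.67, 10.85 and 10.34 in PreMegE, against 8.17, 8.07 and 8.06 in GMP GFP+, without overlap, and rose by 2.52 (SE 0.16, adjusted p = 1.86e-10) or 5.72-fold. Gp5, a subunit of the platelet receptor for von Willebrand factor, was 9.48, 8.58 and 9.07 in PreMegE, against 6.49, 6.93 and 6.46 in GMP GFP+, and rose by 2.41 (SE 0.29, adjusted p = 1.07e-05). Pf4, the platelet factor 4 chemokine gene, was 5.66, 8.36 and 8.37 in PreMegE, against 4.85, 4.57 and 5.01 in GMP GFP+. PreMegE array 1 lay far below the other PreMegE arrays in Pf4 and still above every GMP GFP+ array, and the difference was 2.65 (SE 0.50, adjusted p = 0.00302). Gp9 (0.23, adjusted p = 0.756) and Vwf (0.25, adjusted p = 0.512) were not called. The member that fell was P2rx1, an ATP-gated channel of platelets, with a difference of -1.02 (SE 0.24, adjusted p = 0.0253), a call that held in 0 of 6 fits that each left out 1 array (adjusted p up to 0.125). As a mean over the list, PreMegE arrays had 7.12 to 7.43 and GMP GFP+ arrays 6.92 to 7.02, with PreMegE array 1 the lowest of its group.

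Of the 15 largest rises, 10 were called whichever array was left out, and all 15 of the largest falls were. Plxnc1, a semaphorin receptor gene, was 9.13, 10.14 and 9.87 in PreMegE, against 7.34, 7.80 and 7.82 in GMP GFP+, and rose by 2.06 (SE 0.24, adjusted p = 9.36e-06). Cd180, a Toll-like receptor relative, Prdx4, a peroxiredoxin, the ion cotransporter gene Slc12a2 and Arhgap12 rose by 1.93, 1.93, 1.90 and 1.72. Their GMP GFP+ means of 7.04, 6.30, 6.72 and 5.68 were the lowest of the 8 sorted groups. GMP GFP- was close in Slc12a2 (6.93) and Arhgap12 (5.72). The call of Cd180 was lost without PreMegE array 2 (adjusted p = 0.0529). The call of Prdx4 was lost without GMP GFP+ array 3 (adjusted p = 0.14) or PreMegE array 1 (adjusted p = 0.148). The call of Slc12a2 was lost without GMP GFP+ array 1 (adjusted p = 0.142), GMP GFP+ array 2 (adjusted p = 0.0916), PreMegE array 2 (adjusted p = 0.18) or PreMegE array 3 (adjusted p = 0.0644). The call of Arhgap12 was lost without GMP GFP+ array 1 (adjusted p = 0.0856), PreMegE array 2 (adjusted p = 0.0556) or PreMegE array 3 (adjusted p = 0.0605). Among the falls outside the lists described next, Atp8b4, a phospholipid flippase gene, was 5.82, 6.94 and 6.07 in PreMegE, against 10.81, 10.59 and 10.80 in GMP GFP+, and fell by 4.46 (SE 0.31, adjusted p = 1.92e-09). Papss2, which makes the sulfate donor of proteoglycans, was 5.98, 5.97 and 5.92 in PreMegE, against 9.94, 10.17 and 9.57 in GMP GFP+, and fell by 3.94 (SE 0.27, adjusted p = 1.4e-09). The groups did not overlap in either gene.

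**Figure D2:**
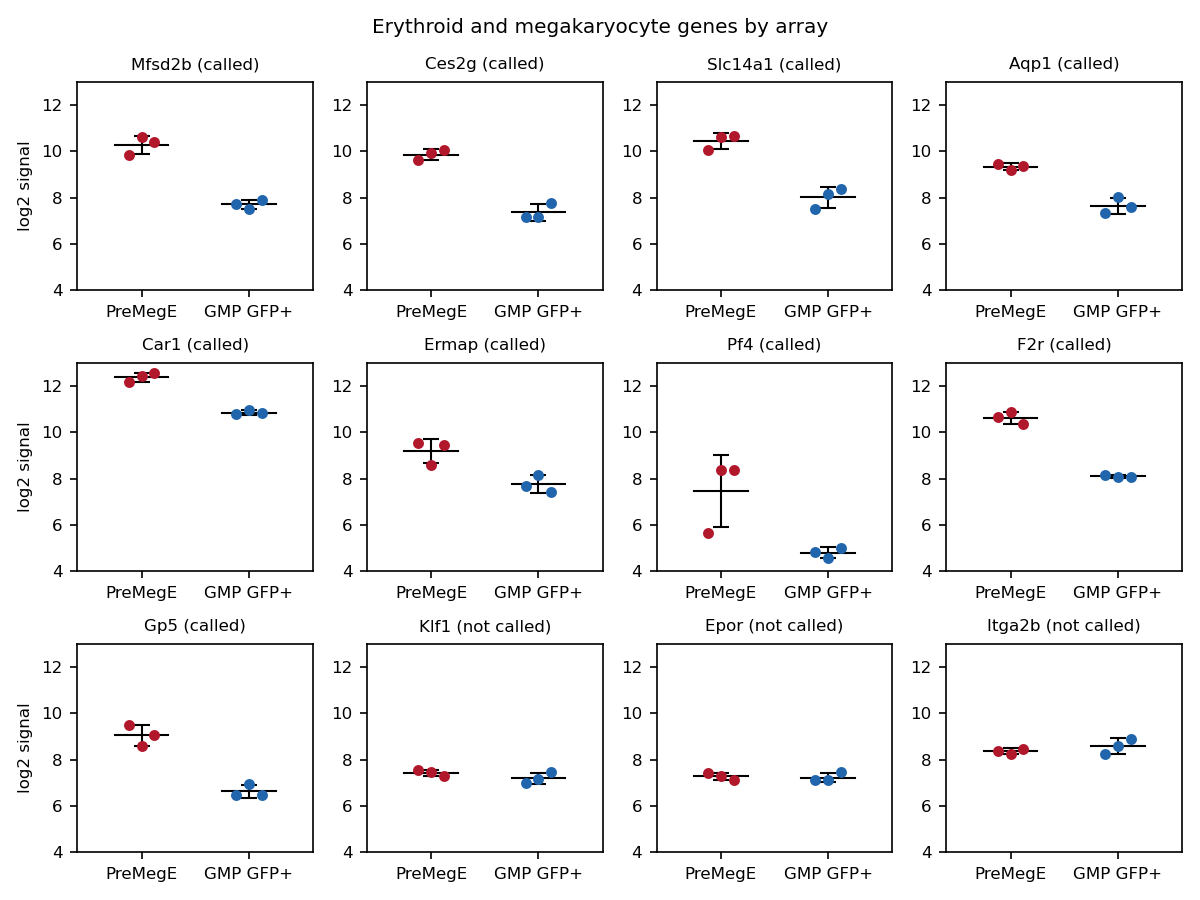
Log2 signal (vertical axis) of 12 erythroid and megakaryocyte genes in the 3 PreMegE arrays (red, left) and the 3 GMP GFP+ arrays (blue, right), with the mean (wide line) and SD (error bar). The groups separate in the 9 called genes and overlap in Klf1, Epor and Itga2b; Pf4 is low in PreMegE array 1 at 5.66.

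Promoter windows of 300 bases (250 before and 50 after the start site, RefSeq, GRCm38.p6) were read for the letters AGATAA or TGATAA and for AGATAG or TGATAG on both strands, as a description of where the motif of GATA factors occurs. Among the 15 largest rises 12 genes had a window and 5 held such letters (41.7%). The share was 25.1% among the 15614 measured genes with a window and 29.8% among all 32851 windows of this length. Among all genes called higher it was 13 of 71 (18.3%). The windows of Pf4 (chr5:90772185-90772484, plus strand), Ces2g (chr8:104961468-104961767, plus strand) and Gp5 (chr16:30310732-30311031, minus strand) are shown because they hold the letters, which are in capitals, and belong to platelet and erythroid genes among the largest rises.
Pf4: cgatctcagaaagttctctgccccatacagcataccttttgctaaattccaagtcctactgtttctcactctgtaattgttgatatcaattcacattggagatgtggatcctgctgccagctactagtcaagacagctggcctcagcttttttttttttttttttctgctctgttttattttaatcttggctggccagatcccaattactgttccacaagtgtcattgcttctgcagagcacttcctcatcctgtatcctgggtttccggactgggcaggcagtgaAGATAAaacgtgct
Ces2g: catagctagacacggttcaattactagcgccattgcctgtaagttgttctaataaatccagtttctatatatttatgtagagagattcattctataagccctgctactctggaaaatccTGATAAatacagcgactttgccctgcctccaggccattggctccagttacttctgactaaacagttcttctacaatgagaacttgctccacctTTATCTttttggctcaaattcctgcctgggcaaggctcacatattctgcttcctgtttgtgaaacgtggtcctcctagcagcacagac
Gp5: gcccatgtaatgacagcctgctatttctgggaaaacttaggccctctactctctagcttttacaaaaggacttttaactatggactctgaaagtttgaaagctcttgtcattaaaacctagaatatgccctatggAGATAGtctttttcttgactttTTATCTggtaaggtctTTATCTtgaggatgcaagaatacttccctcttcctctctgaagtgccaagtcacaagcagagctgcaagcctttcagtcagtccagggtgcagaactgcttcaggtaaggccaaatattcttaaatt
Gp5 held 3 matches, Ces2g 2 and Pf4 1. The windows of Mfsd2b and F2r, with rises of like size, held 0.

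Mast cell and basophil genes were low in PreMegE, but only in part. Of 34 measured, 18 fell and 0 rose, against 1.26% of all genes called lower, with a median difference of -0.79. The other 16 were not called. They include the mast cell protease genes Mcpt4 (-0.12), Tpsb2 (-0.12) and Tpsab1 (-0.08), whose means lay below the median signal in both groups. Slc18a2, with means of 9.73 in PreMegE and 10.26 in GMP GFP+, and Kit, with 10.51 and 10.35, were high in both groups. Mcpt8, a granule protease of basophils, had 6.12, 6.01 and 5.58 in PreMegE, against 12.36, 12.37 and 11.98 in GMP GFP+, and fell by 6.33 (SE 0.38, adjusted p = 1.55e-10). The granzyme gene Gzmb was 5.78, 5.82 and 5.90 in PreMegE, against 11.35, 11.39 and 11.09 in GMP GFP+. All PreMegE arrays lay below the median signal in both genes, and Gzmb fell by 5.45 (SE 0.28, adjusted p = 1.3e-11). The alpha chain gene of the IgE receptor, Fcer1a, was 4.50, 5.80 and 6.60 in PreMegE, against 10.73, 11.27 and 9.69 in GMP GFP+, and its beta chain gene, Ms4a2, was 5.27, 5.94 and 5.98 in PreMegE, against 11.11, 11.39 and 10.09 in GMP GFP+. Fcer1a fell by 4.93 (SE 0.40, adjusted p = 1.91e-08), and Ms4a2 fell by 5.14 (SE 0.28, adjusted p = 3.72e-11). The groups lay far apart in both chains. Cpa3, the mast cell carboxypeptidase gene, was 7.38, 7.92 and 7.88 in PreMegE, against 11.64, 11.54 and 11.20 in GMP GFP+, and fell by 3.74 (SE 0.45, adjusted p = 1.26e-05) or 13.3-fold. Hdc, which makes histamine, fell by 3.48 (SE 0.17, adjusted p = 1.08e-11), and the ribonuclease gene Rnase12, listed with them, fell by 6.44 (SE 0.50, adjusted p = 1.02e-08). Smaller falls passed for Cma1 (-0.96), Hpgds (-0.85) and Cd200r3 (-0.73). The call of Hpgds was lost without GMP GFP+ array 1 (adjusted p = 0.117), GMP GFP+ array 2 (adjusted p = 0.124), GMP GFP+ array 3 (adjusted p = 0.116), PreMegE array 1 (adjusted p = 0.0651) or PreMegE array 2 (adjusted p = 0.283).

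Eosinophil granule genes showed the largest single gap. Of 16 eosinophil genes 9 fell and 0 rose, against 1.26% and 0.451% of all genes. All 16 had a difference below 0, as did 10083 of all 19938 genes, and their median was -0.64. Prg2, the major basic protein gene, had 6.03, 6.06 and 5.89 in PreMegE, against 12.86, 12.85 and 12.09 in GMP GFP+, and fell by 6.61 (SE 0.49, adjusted p = 4.31e-09), the largest change of the comparison. Its relative Prg3 was 6.31, 6.37 and 6.13 in PreMegE, against 11.26, 11.09 and 10.42 in GMP GFP+, and the peroxidase gene Epx 5.84, 5.34 and 5.75 in PreMegE, against 8.77, 9.14 and 8.86 in GMP GFP+. No PreMegE array of these 3 genes exceeded the median signal. Prg3 fell by 4.65 (SE 0.28, adjusted p = 1.55e-10), and Epx fell by 3.28 (SE 0.16, adjusted p = 1.08e-11). Ear6, a granule ribonuclease gene, fell by 4.91 (SE 0.29, adjusted p = 1.17e-10); its family is closely related and the probe set may read other members. The receptor genes were measured at lower signals, with Il5ra, the alpha chain of the interleukin 5 receptor, at a difference of -1.04 (SE 0.14, adjusted p = 5.51e-05) and Ccr3, the eotaxin receptor, at -0.79 (SE 0.19, adjusted p = 0.0356). Their means lay below the median signal of 6.61 in both groups, with GMP GFP+ at 5.88 in Il5ra and 6.53 in Ccr3. Signals this low were not set against a measured background. The GMP GFP+ mean of Il5ra still lay above its means in all other sorted groups, which ran from 4.74 to 4.99. Siglecf had a difference of -0.50 (SE 0.12, adjusted p = 0.0268). The call of Siglecf was lost without GMP GFP+ array 1 (adjusted p = 0.176), GMP GFP+ array 2 (adjusted p = 0.126), PreMegE array 2 (adjusted p = 0.0914) or PreMegE array 3 (adjusted p = 0.129). The call of Ccr3 was lost without GMP GFP+ array 2 (adjusted p = 0.235), PreMegE array 1 (adjusted p = 0.162), PreMegE array 2 (adjusted p = 0.0933) or PreMegE array 3 (adjusted p = 0.0619).

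The same GATA letters occurred in the windows of 5 of 14 genes among the 15 largest falls (35.7%) and of 68 of 205 genes called lower (33.2%), against 25.1% of measured genes with a window and 29.8% of all windows. Those of Ms4a2 (chr19:11623670-11623969, minus strand), Fcer1a (chr1:173227180-173227479, minus strand) and Prg3 (chr2:84987965-84988264, plus strand) are shown beside the PreMegE genes above as mast cell and eosinophil genes that hold the letters, in capitals.
Ms4a2: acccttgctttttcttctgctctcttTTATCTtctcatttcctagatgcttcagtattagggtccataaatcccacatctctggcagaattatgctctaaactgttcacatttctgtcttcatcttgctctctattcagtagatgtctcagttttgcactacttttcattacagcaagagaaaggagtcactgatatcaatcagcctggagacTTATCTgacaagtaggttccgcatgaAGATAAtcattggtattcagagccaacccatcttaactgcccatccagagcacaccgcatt
Fcer1a: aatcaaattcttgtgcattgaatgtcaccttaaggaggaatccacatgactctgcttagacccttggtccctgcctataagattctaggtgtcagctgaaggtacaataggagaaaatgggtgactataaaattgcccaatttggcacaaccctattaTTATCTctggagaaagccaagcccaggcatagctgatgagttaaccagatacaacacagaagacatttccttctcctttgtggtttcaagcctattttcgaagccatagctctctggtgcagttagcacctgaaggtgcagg
Prg3: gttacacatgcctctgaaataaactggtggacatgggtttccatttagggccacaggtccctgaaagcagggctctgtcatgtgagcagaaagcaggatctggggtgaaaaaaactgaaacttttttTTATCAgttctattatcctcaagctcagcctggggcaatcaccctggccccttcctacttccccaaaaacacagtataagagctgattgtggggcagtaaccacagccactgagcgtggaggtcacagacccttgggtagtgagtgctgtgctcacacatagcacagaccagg
Ms4a2 held 3 matches, Fcer1a 1 and Prg3 1. GATA letters thus stood in windows of genes high on either side. The windows of Mcpt8, Gzmb and Rnase12 held 0. The letters CCACCC of the CACCC box, to which factors such as Klf1 bind, were in 32.4% of windows of genes called higher and 38.5% of those called lower, against 34.3% of measured genes with a window and 31.5% of all windows. The share among genes called higher thus lay below the one and above the other.

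Genes of the primary granules of neutrophils, which are made early in granulocyte development, were also low in PreMegE. Of 11 genes on this list 8 fell and 0 rose, against 1.26% and 0.451% of all genes (median -1.36). The 8 were Mpo, Ctsg, Elane, Prtn3, Ms4a3, Rab44, Calr and Serpinb1a, so the list is wider than granule proteins. Ctsg, the cathepsin G gene, was 6.21, 6.84 and 7.51 in PreMegE, against 11.56, 11.52 and 10.96 in GMP GFP+, and fell by 4.49 (SE 0.39, adjusted p = 5.68e-08). The myeloperoxidase gene Mpo was 9.04, 9.38 and 9.95 in PreMegE, against 12.84, 12.90 and 12.90 in GMP GFP+. It was well above the median signal in every array of both groups and still fell by 3.42 (SE 0.25, adjusted p = 4.31e-09) or 10.7-fold. Ms4a3, a membrane gene of granulocyte-macrophage progenitors, fell by 3.89 (SE 0.29, adjusted p = 4.67e-09), and the elastase gene Elane had a difference of -1.61 (SE 0.23, adjusted p = 0.000134). As a mean over the list, PreMegE arrays had 7.60 to 7.87 and GMP GFP+ arrays 9.52 to 9.74.

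Genes of the later granules had few calls. Of 21 measured 1 rose, Chil3, and 2 fell, against 0.451% and 1.26% of all genes, with a median of 0.10. More genes differed short of a call. In limma 9 of the 21 had an unadjusted p under 0.05, as did 1825 of all 19938 genes. Arrays did not overlap in 7 genes higher in PreMegE and 3 lower, against 6.48% and 6.94% of all genes. Chil3, a chitinase-like protein gene of maturing neutrophils, was 9.10, 9.31 and 8.94 in PreMegE, against 6.42, 7.91 and 6.90 in GMP GFP+, and rose by 2.05 (SE 0.47, adjusted p = 0.019). The call of Chil3 was lost without GMP GFP+ array 1 (adjusted p = 0.145), GMP GFP+ array 3 (adjusted p = 0.087), PreMegE array 1 (adjusted p = 0.0601) or PreMegE array 2 (adjusted p = 0.0867). Its mean in GMP GFP-, 10.56 ± 0.83 (SD, n = 4), was above both. Ngp, a neutrophil granule protein gene, was 11.56, 10.25 and 9.71 in PreMegE, against 8.45, 9.41 and 8.22 in GMP GFP+. The calcium-binding protein gene S100a9 was 11.90, 11.69 and 11.68 in PreMegE, against 10.26, 11.35 and 9.31 in GMP GFP+. The arrays did not overlap in either gene, neither was called (adjusted p = 0.487 and 0.688), and GMP GFP+ array 2 was the highest of its group in both. Mature neutrophils carry these transcripts in abundance, and the mean of the list was 7.42 to 8.06 in PreMegE and 7.09 to 7.77 in GMP GFP+, highest in PreMegE array 1; its part in the call of Chil3 was not tested. Anxa1, an annexin gene, fell by 2.30 (SE 0.29, adjusted p = 2.5e-05). The leukotriene B4 receptor gene Ltb4r1 fell by 1.04 (SE 0.24, adjusted p = 0.0182). The call of Ltb4r1 was lost without GMP GFP+ array 2 (adjusted p = 0.126), GMP GFP+ array 3 (adjusted p = 0.0925), PreMegE array 1 (adjusted p = 0.0622) or PreMegE array 2 (adjusted p = 0.0855).

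Regulators of cell fate split in both directions. Of 48 measured 6 rose and 8 fell in PreMegE, against 0.451% and 1.26% of all genes, and the median was near 0. Among those that rose were 3 members of the complexes in which Gata1 acts. Lmo2, a LIM-only bridging protein, was 10.14, 10.38 and 10.23 in PreMegE, against 9.0, 8.88 and 9.03 in GMP GFP+, and rose by 1.28 (SE 0.13, adjusted p = 6.71e-07) or 2.43-fold. Its binding partner Ldb1 was 11.06, 11.14 and 11.03 in PreMegE, against 10.05, 10.16 and 10.41 in GMP GFP+, and rose by 0.87 (SE 0.19, adjusted p = 0.00985). The cofactor gene Zfpm1 (FOG1) was 8.24, 8.56 and 8.98 in PreMegE, against 7.57, 7.63 and 7.60 in GMP GFP+, and rose by 0.99 (SE 0.19, adjusted p = 0.00355). For all 3 every PreMegE array lay above every GMP GFP+ array. Mycn rose by 0.97 (SE 0.16, adjusted p = 0.000629), Myc by 0.88 (SE 0.18, adjusted p = 0.0087) and the early response factor gene Egr1 by 0.62 (SE 0.15, adjusted p = 0.0236). The call of Ldb1 was lost without GMP GFP+ array 1 (adjusted p = 0.0711) or PreMegE array 2 (adjusted p = 0.0516). The call of Myc was lost without GMP GFP+ array 1 (adjusted p = 0.0968) or PreMegE array 3 (adjusted p = 0.054). The call of Egr1 was lost without GMP GFP+ array 2 (adjusted p = 0.149), PreMegE array 1 (adjusted p = 0.0916), PreMegE array 2 (adjusted p = 0.0569) or PreMegE array 3 (adjusted p = 0.0849).

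Id2, an inhibitor of helix-loop-helix factors, had the largest fall among them, with 5.75, 5.87 and 6.08 in PreMegE, against 9.76, 10.10 and 9.22 in GMP GFP+. The difference was -3.80 (SE 0.37, adjusted p = 4.49e-07). Lmo4, another LIM-only protein, which also binds Ldb1, was 7.37, 7.65 and 6.98 in PreMegE, against 10.97, 11.19 and 10.83 in GMP GFP+, and fell by 3.66 (SE 0.28, adjusted p = 9.09e-09) or 12.7-fold. The 2 LIM-only genes thus lay on opposite sides, Lmo2 high in PreMegE and Lmo4 high in GMP GFP+. Cebpa, the factor that drives granulocyte and monocyte development, was 7.70, 8.04 and 7.15 in PreMegE, against 9.53, 9.03 and 9.11 in GMP GFP+, and fell by 1.59 (SE 0.20, adjusted p = 2.67e-05) or 3.01-fold. The granulocyte factor gene Cebpe fell by 1.22 (SE 0.23, adjusted p = 0.00261). Ikzf2 of the Ikaros family and Runx1 had differences of -1.74 (SE 0.21, adjusted p = 1.18e-05) and -1.32 (SE 0.19, adjusted p = 9.65e-05), both called. Mitf, the mast cell factor, was 6.37, 6.23 and 6.20 in PreMegE, against 7.33, 6.56 and 7.60 in GMP GFP+, and fell by 0.89 (SE 0.21, adjusted p = 0.0268), a call that held in 1 of 6 fits that left out 1 array, the one without GMP GFP+ array 2 (adjusted p up to 0.207 in the others). Tfec, of the same family, fell by 1.80 (SE 0.46, adjusted p = 0.0447), a call that held in 0 of 6 (adjusted p up to 0.152). Mitf was read by 2 probe sets, of which the one with the higher mean was used. With the mean of the probe sets of each gene, 7 fate regulators were lower in place of 8.

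Several regulators that are known for one of these fates were not called. Gata2, the GATA factor of stem cells and mast cells, was 9.31, 9.33 and 9.14 in PreMegE, against 9.13, 9.74 and 10.16 in GMP GFP+, with a difference of -0.42 (SE 0.19, adjusted p = 0.484). Spi1, the myeloid factor PU.1, was 6.59, 6.76 and 6.63 in PreMegE, against 7.50, 7.81 and 7.39 in GMP GFP+. The arrays did not overlap, yet the difference of -0.91 (SE 0.32) had an adjusted p of 0.268 in limma. This SE draws on the spread within all 8 groups. The SD of Spi1 was 0.09 in PreMegE and 0.22 in GMP GFP+, but 0.84 in haematopoietic stem cells. Gfi1b, a repressor needed for red cells and megakaryocytes, differed by 0.32 (SE 0.18, adjusted p = 0.668), Tal1 by 0.13 (SE 0.12, adjusted p = 0.858) and Irf8 by 0.05 (SE 0.33, adjusted p = 0.994).

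**Figure D3:**
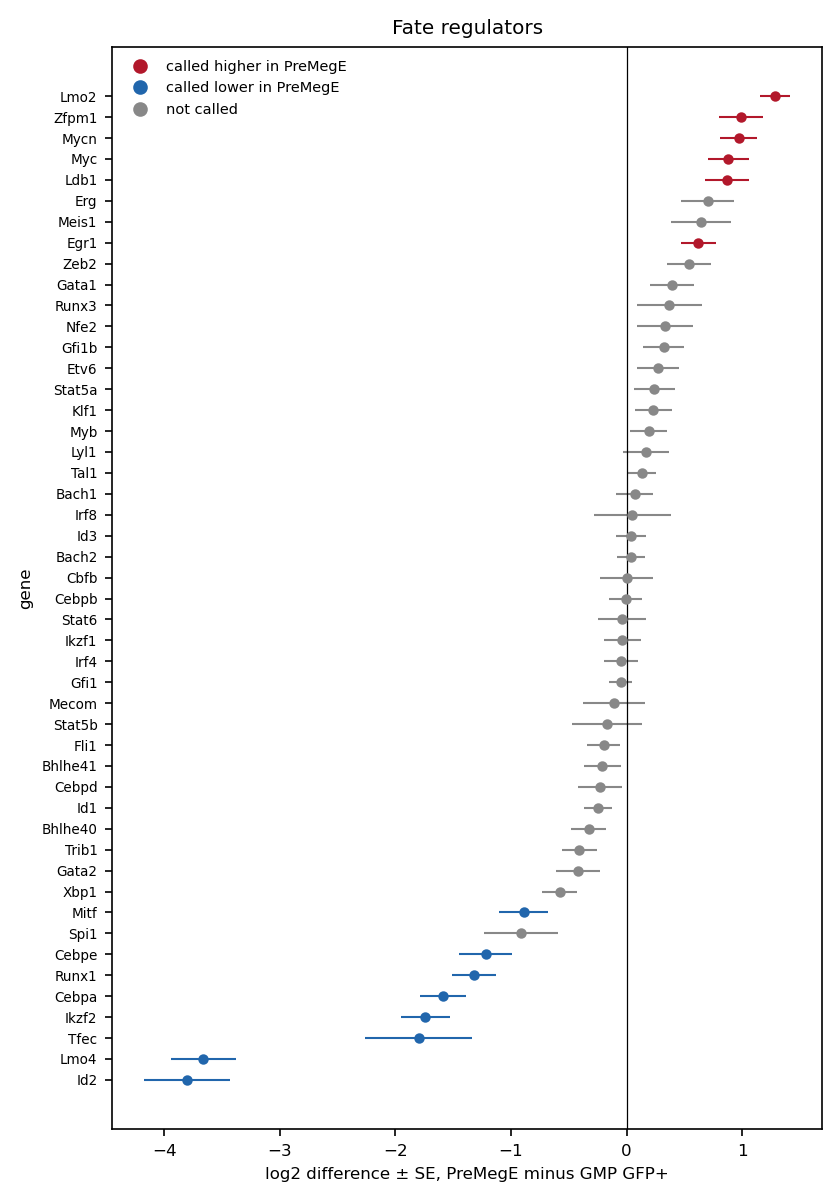
Log2 difference of PreMegE minus GMP GFP+ with its SE (horizontal axis) for 48 fate regulators, in order of size. The 6 genes called higher (red) reach 1.28 in Lmo2, and the 8 called lower (blue) reach -3.66 in Lmo4 and -3.80 in Id2; Gata1, Gata2 and Klf1 (grey) were not called.

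Among 32 cytokine and growth factor receptor genes 1 rose and 6 fell in PreMegE, where 0.451% of all genes rose and 1.26% fell. Csf2rb, the beta chain shared by the receptors for interleukin 3, interleukin 5 and GM-CSF, was 6.48, 6.52 and 6.15 in PreMegE, against 9.0, 9.09 and 9.66 in GMP GFP+, and fell by 2.86 (SE 0.37, adjusted p = 3.1e-05). Csf2rb2, the beta chain that serves interleukin 3 alone in mice, fell by 2.62 (SE 0.21, adjusted p = 2.26e-08); the 2 genes are near-identical in sequence and may share probes. The alpha chain genes Il3ra (-0.34, adjusted p = 0.29) and Csf2ra (-0.02, adjusted p = 0.995) were not called. The chemokine receptor genes Cxcr4 and Cx3cr1 fell, with differences of -1.45 (SE 0.18, adjusted p = 1.33e-05) and -1.54 (SE 0.25, adjusted p = 0.000623). The member that rose was Tgfbr3, a coreceptor for transforming growth factor beta, by 1.15 (SE 0.15, adjusted p = 4.78e-05). Of 27 lipid and amine mediator genes 3 fell, against 1.26% of all genes, among them the 5-lipoxygenase gene Alox5, which starts leukotriene synthesis, with 6.54, 6.33 and 6.12 in PreMegE, against 9.18, 9.36 and 9.03 in GMP GFP+. Alox5 fell by 2.86 (SE 0.17, adjusted p = 1.33e-10). Ltc4s, the next enzyme to cysteinyl leukotrienes, differed by -0.01 (SE 0.17, adjusted p = 0.997). Of 28 integrin and adhesion genes 2 fell, against the same 1.26%, the E-cadherin gene Cdh1 at a difference of -2.21 (SE 0.14, adjusted p = 4.18e-10) and Cd34 at -1.71 (SE 0.28, adjusted p = 0.000696).

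Lymphoid priming genes gave 2 rises and 4 falls of 21 (median -0.06), where 0.451% of all genes rose and 1.26% fell. The tetraspanin gene Cd53 fell by 4.54 (SE 0.36, adjusted p = 1.33e-08). Emb and the glutamate receptor gene Gria3 also fell, with differences of -3.74 (SE 0.48, adjusted p = 2.71e-05) and -3.34 (SE 0.35, adjusted p = 1.53e-06), while the factor genes Mef2c and Bcl11a rose by 1.95 (SE 0.26, adjusted p = 5.51e-05) and 1.07 (SE 0.14, adjusted p = 3.19e-05). Mef2c had its lowest mean of the 8 sorted groups in GMP GFP+ (7.78), while Bcl11a was lower in GMP GFP- (9.07) than in GMP GFP+ (9.74). Stem cell genes gave 2 rises, the gate gene Slamf1 and Egr1, and 2 falls of 30, against the same 0.451% and 1.26%. No member was called among 33 S phase and DNA replication genes (median -0.02, 3 at an unadjusted p under 0.05 in limma) or 27 G2 and M phase genes (median 0.06, 1 at an unadjusted p under 0.05 in limma). In the G2 and M phase genes the PreMegE arrays spanned mean levels of 7.98 to 8.76, lowest in array 1, and the GMP GFP+ arrays 8.25 to 8.54. Limma also called 0 of 19 dendritic cell genes, 0 of 21 B lymphoid genes, 0 of 22 T and NK lymphoid genes and 0 of 17 stroma and endothelium genes, with 0, 1, 0 and 2 at an unadjusted p under 0.05. Their mean levels lay between 6.20 and 6.59 in every array, below the median signal. Of 26 monocyte and macrophage genes 1 fell, Cx3cr1, against 1.26% of all genes. Interferon response genes gave 1 rise of 20, against 0.451% of all genes, with Ifitm3 higher by 0.75 (SE 0.13, adjusted p = 0.00159). Among 4 sex-linked genes limma called 0, with 0 at an unadjusted p under 0.05. The Y-linked gene Uty was 4.91, 6.89 and 5.36 in PreMegE, against 6.73, 5.23 and 6.55 in GMP GFP+, with high and low arrays in both groups.

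**Figure D4:**
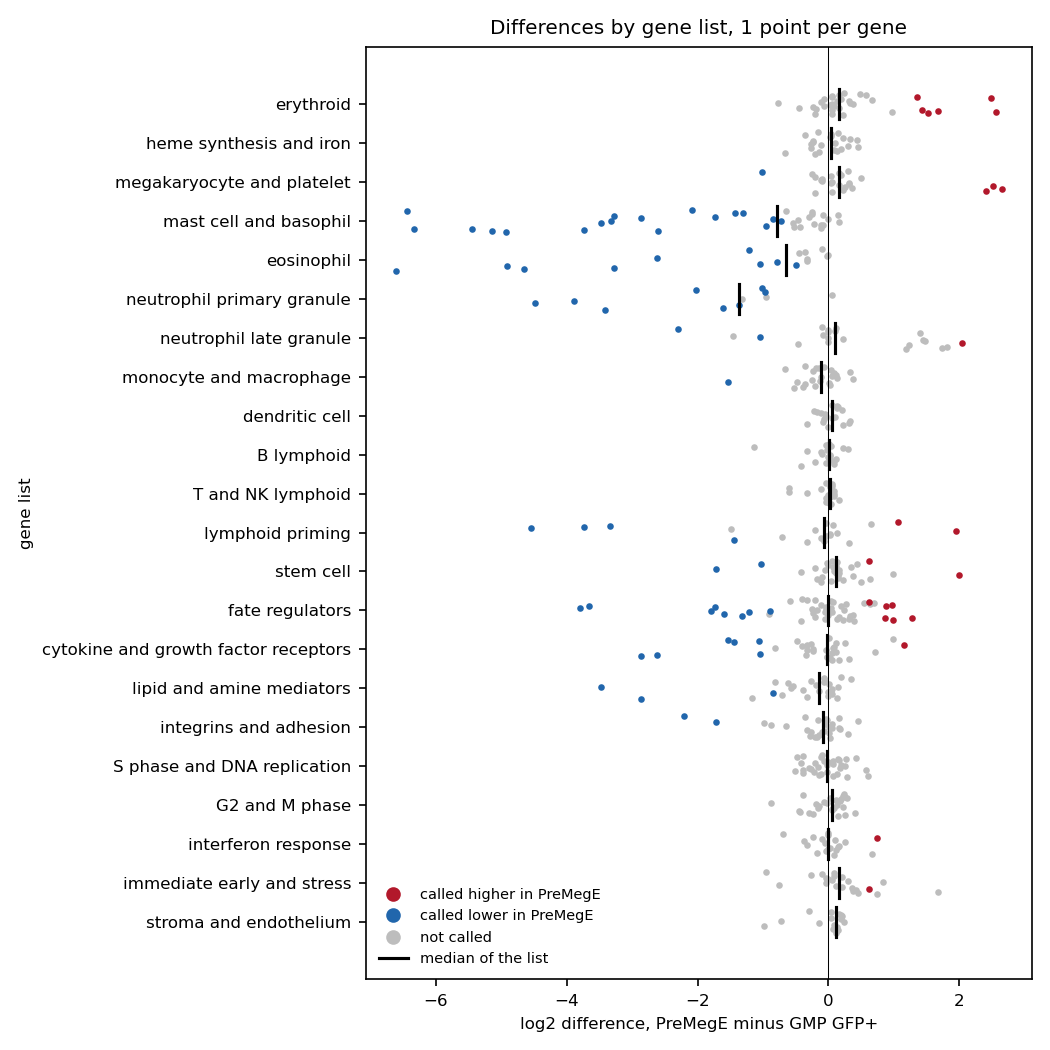
Log2 difference of PreMegE minus GMP GFP+ (horizontal axis) of each measured gene, by list, with the median of each list as a black line. Points called lower (blue) gather in the mast cell, eosinophil and primary granule lists, with medians of -0.79, -0.64 and -1.36, and points called higher (red) are few in any list.

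The called genes were then placed in the other sorted groups, whose arrays also enter the estimate of spread and the choice of probe set. Each gene was counted by whether a group's mean lay nearer the PreMegE or the GMP GFP+ mean, as a description with no test. Reporter-positive pre-granulocyte-macrophage cells (PreGM GFP+) lay nearer PreMegE for 75 of 90 genes higher in PreMegE (83.3%) and for 208 of 252 lower genes (82.5%). For the lower genes this share was also 75.0% in haematopoietic stem cells (HSC GFP-) and 66.3% in lymphoid-primed multipotent progenitors (LMPP). It was 61.9% in common lymphoid progenitors (CLP), 56.0% in reporter-negative PreGM cells (PreGM GFP-) and 49.2% in GMP GFP-. For the higher genes it was 24.4% to 43.3% in these groups. Mfsd2b was 10.25 ± 0.15 (SD, n = 3) and Car1 12.01 ± 0.11 (SD, n = 3) in PreGM GFP+, both nearer to PreMegE, at 10.28 and 12.37, than to GMP GFP+, at 7.72 and 10.84. The mast cell genes Ms4a2 at 8.96 ± 0.42 (SD, n = 3) and Cpa3 at 9.69 ± 0.28 (SD, n = 3) were instead past the midpoint towards GMP GFP+. The eosinophil genes Epx at 5.57 ± 0.11 (SD, n = 3), Prg3 at 6.23 ± 0.20 (SD, n = 3) and Prg2 at 6.93 ± 1.27 (SD, n = 3) were nearer the PreMegE levels of 5.64, 6.27 and 5.99. Of the called genes of these lists, 3 of 18 mast cell and basophil genes and 1 of 9 eosinophil genes lay nearer GMP GFP+ in PreGM GFP+.

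GMP GFP- divided the genes that were low in PreMegE about evenly. Of 252 such genes, 128 (50.8%) lay nearer GMP GFP+ in the reporter-negative cells of the same gate, and 124 nearer PreMegE. The first kind held all 8 called genes of the primary granule list, with Mpo at 13.36 ± 0.07 (SD, n = 4), Ctsg at 12.07 ± 0.12 (SD, n = 4), Ms4a3 at 12.07 ± 0.09 (SD, n = 4) and Elane at 11.47 ± 0.14 (SD, n = 4) in GMP GFP-, together with Cd53 at 10.81, Emb at 11.08 and Ms4a6c at 10.25. The second kind held 14 of 18 mast cell and basophil genes and 8 of 9 eosinophil genes, with Ms4a2 at 5.50 ± 0.42 (SD, n = 4), Gzmb at 5.71 ± 0.22 (SD, n = 4), Prg2 at 6.35 ± 0.49 (SD, n = 4) and Epx at 5.58 ± 0.08 (SD, n = 4). Mcpt8, at 9.34 ± 0.47 (SD, n = 4), and Hdc, at 9.18 ± 0.21 (SD, n = 4), were mast cell and basophil genes of the first kind. Id2 was 6.80 ± 0.34 (SD, n = 4), Lmo4 8.36 ± 0.55 (SD, n = 4) and Ikzf2 7.98 ± 0.42 (SD, n = 4) in GMP GFP-, nearer PreMegE, while Cebpa at 9.30 ± 0.16 (SD, n = 4) was at the level of GMP GFP+. The Gata1 complex gene Ldb1, at 9.63 ± 0.19 (SD, n = 4), and Zfpm1, at 7.27 ± 0.21 (SD, n = 4), were on the GMP GFP+ side. Lmo2 was not: its 9.88 ± 0.14 (SD, n = 4) in GMP GFP- was nearer the 10.25 of PreMegE than the 8.97 of GMP GFP+. Common lymphoid progenitors (CLP) had a Lmo2 level like that of GMP GFP+, at 9.0 ± 0.18 (SD, n = 3). Myc likewise was 11.47 ± 0.15 (SD, n = 4) in GMP GFP-, against 10.62 in GMP GFP+.

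**Figure D5:**
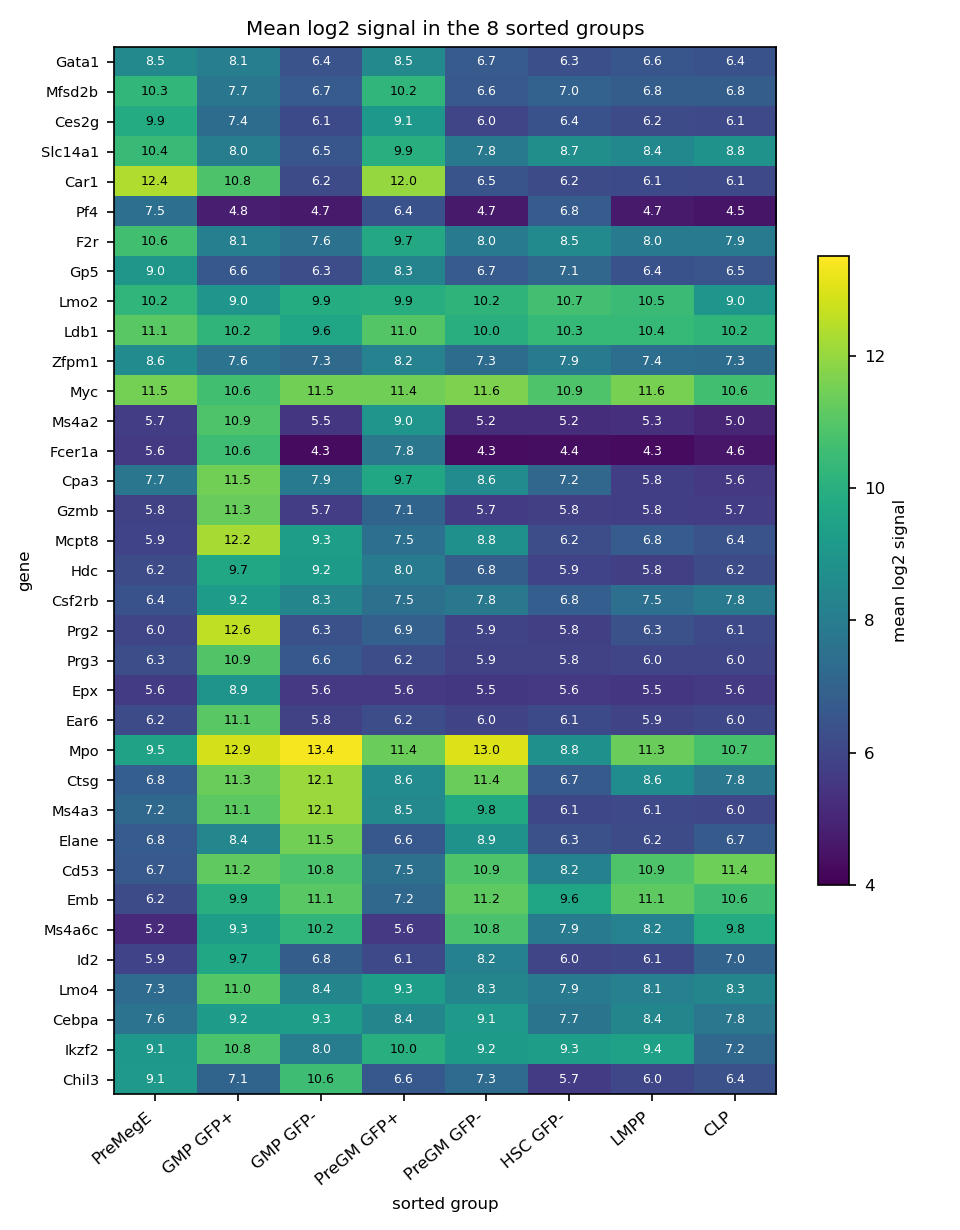
Mean log2 signal of 35 genes (rows) in the 8 sorted groups (columns), to be compared along a row and not between genes. Mfsd2b, Ces2g, Car1 and Gp5 are highest in PreMegE and PreGM GFP+; Prg2, Prg3, Epx and Ear6 are high in GMP GFP+, Mpo, Ctsg and Ms4a3 are highest in the GMP groups and PreGM GFP-, and Cd53 is also high in LMPP (lymphoid-primed multipotent progenitors) and CLP.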

How the data were processed

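The authors' deposited values are log2 signals of Mouse Gene 1.1 ST arrays hybridised with biotin-labelled cRNA, per the labels, and the submitters' processing notes name RMA and oligo, with no step or version. The base of the logarithm is not given in the sources used here and was taken as 2, the base RMA uses. Of 35556 probe sets 21789 named 1 gene and were kept, by an annotation of the 1.0 ST version of the array; 21698 matched an Entrez record of the RefSeq table (GRCm38.p6). The probe set with the highest mean over all arrays stood for a gene. All 26 arrays were fitted with 1 coefficient for each of 8 groups in limma 3.58.1 under R 4.3.3, and PreMegE minus GMP GFP+ was tested over 19938 genes. The fit was tested on simulated data. Named are the 15 largest rises and falls among called genes without overlap, passing over model identifiers, small RNAs, olfactory receptors and antigen receptor segments, and at most 6 called genes each way per list; fate regulators, receptors, sort markers and sex-linked genes may be named in any case. Alas2, Tfrc, Gp9, Vwf, Ngp, S100a9, Ltc4s, Cma1, Hpgds, Cd200r3, Siglecf, Snord38a, Olfr417 and the P2 receptor and MS4A genes of the closing observations that the rule does not reach fall outside it and were chosen after their values were seen. Mcpt4, Tpsb2, Tpsab1, Slc18a2, Calr and Serpinb1a were chosen in the same way. The comparison and the lists were chosen with earlier results of these data known, so lists are described by counts and medians without a test. Alternatives covered the spread, array weights, scaling, dim genes, probe sets, the variance prior, the replicate number and each array in turn. Scanner files and slides were not analysed here.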

Additional observations from a re-analysis of the deposited data

Results flagged for a closer look

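In GMP GFP-, the group of 4 arrays used to place the genes, 1 array stood far from the others in 2 of 35 genes whose level there was read. The far arrays had 7.58 in Zfpm1 and 4.46 in Fcer1a, against group means of 7.27 and 4.26. Chance flags about 1 in 20 groups. Groups of 3 arrays, PreMegE and GMP GFP+ among them, were too small for this check.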

How the results depend on the processing

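The count of genes higher in PreMegE was 90 as reported, 37 with the spread from the 6 arrays alone and 180 with arrays weighted by precision, and 51 to 75 when each array was left out in turn. The count of lower genes was 252, 153 with the spread from the 6 arrays alone, 343 with weights and 191 to 227 with an array left out. By at least 1 log2 unit the 6 arrays alone gave 28 higher, and leaving out an array gave 32 to 50 higher and 141 to 170 lower. The 6 arrays alone also gave 2 fate regulators higher in place of 6. With an array left out, higher counts were 5 to 8 for erythroid, 3 in every fit for megakaryocyte and 4 to 6 for fate regulator genes, and lower counts 16 to 18 for mast cell, 7 to 9 for eosinophil, 7 to 8 for primary granule and 6 to 7 for fate regulator genes. Of 154 single genes followed, 0 changed sign with a call under the alternatives run; 22 lost their call with the 6 arrays alone and 7 to 15 with an array left out. The fit of the weights stopped before it reached its tolerance, so its counts are less sure. The cause of these moves was not tested, beyond the smaller number of arrays in both kinds of fit. With the replicate number as a block 87 genes were higher and 244 lower. Same-numbered arrays of the 2 groups had residual correlations of -0.00497, -0.134 and -0.00547, and differently numbered arrays -0.0682 to 0.0999. No pairing by number was seen, but residuals from groups of 3 arrays cannot exclude it. Low signals limit the differences of genes near background.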

Other observations

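The families below were chosen after their values were seen and are given by counts and values from limma with no test of the family. Among 16 P2 receptor genes, which encode receptors for extracellular nucleotides, 4 were lower in PreMegE and 1 higher, against 1.26% and 0.451% of all genes. The ATP-gated channel genes P2rx3, P2rx4 and P2rx7 fell, as did P2rx1, with differences of -3.20 (SE 0.41, adjusted p = 3.19e-05), -1.51 (SE 0.26, adjusted p = 0.00116) and -1.11 (SE 0.15, adjusted p = 7.06e-05) for the 3 not given above. P2rx3, best known from sensory neurons, was 5.61, 6.34 and 5.74 in PreMegE, against 9.66, 9.05 and 8.57 in GMP GFP+. All GMP GFP+ arrays lay well above all PreMegE arrays. P2ry1, an ADP receptor of platelets, rose by 0.53 (SE 0.13, adjusted p = 0.0278).

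Of 19 genes of the MS4A membrane proteins 4 fell and 0 rose, against 1.26% and 0.451% of all genes: Ms4a2, Ms4a3 and Ms4a6c, given above, and Ms4a6b, with a difference of -2.89 (SE 0.56, adjusted p = 0.00415). The rest were not called. Of 11 aquaporin genes 2 rose, Aqp1 and Aqp9, against 0.451% of all genes. Aqp9 was 9.81, 10.01 and 10.01 in PreMegE, against 7.16, 8.38 and 8.15 in GMP GFP+, with a rise of 2.05 (SE 0.28, adjusted p = 5.51e-05).

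Olfr417, an olfactory receptor gene by name that was also chosen after its values were seen, was 10.11, 10.09 and 9.69 in PreMegE, against 8.78, 6.60 and 8.24 in GMP GFP+, and rose by 2.09 (SE 0.35, adjusted p = 0.000871). In PreGM GFP+ it was 9.74 ± 0.26 (SD, n = 3), and in LMPP 6.14 ± 0.16 (SD, n = 4).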
